A study of Homo sapiens with 12 samples.

Results

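T47D cells, an established line of human breast carcinoma cells, were given a progestin at 100 pM or vehicle, and their RNA was sequenced 6 h later. The comparison rests on 4 of the 12 libraries in the series, 2 at 100 pM (replicates 1 and 3) and 2 with vehicle (replicates 1 and 3), chosen by the dose and time in their labels. The other 8 libraries are 10 nM at 6 h and vehicle, 100 pM and 10 nM at 18 h, again with replicates 1 and 3 in each. All groups share the same preparation: cells were held for 24 to 48 h in phenol red-free medium with 0.1% charcoal-stripped serum before treatment. The series asks whether breast cancer cells give different outputs at different levels of progestin, and this comparison is the earlier response to the lower of its doses. The labels do not name the progestin, all cells are of 1 line, and nothing says that replicates came from separate cultures, so the p-values cover the spread between these libraries alone.

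A progestin enters the cell and binds the progesterone receptor, a transcription factor that is held by chaperones until it meets its ligand. The bound receptor attaches as a dimer to DNA elements that it shares with the glucocorticoid, mineralocorticoid and androgen receptors, and recruits coactivators or corepressors to nearby genes. In mammary epithelium progesterone is known for driving side branching and alveolar growth, in large part through secreted factors made by the receptor-positive luminal cells, and in T47D cells progestins change cell cycle genes as well. The receptor also acts outside the nucleus through kinases, and its own gene is among those that progestins turn down.

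The 12 libraries held 34204970 to 41373890 counts each. Levels are given as counts scaled to library size (CPM), always with replicate 1 before replicate 3, and differences as log2 fold changes ± SE from edgeR. Luminal epithelial markers summed to 14065 to 14193 CPM in vehicle and 14596 to 15124 CPM at 100 pM, and 14 of 15 were above 1 CPM in each of the 4 libraries. Immune, endothelial and adipocyte marker lists each summed to under 9 CPM in these libraries, with CD3E, CDH5, CLDN5, LEP and CIDEA at 0. Fibroblast markers summed to 109 to 120.5 CPM in vehicle and 96.7 to 116 CPM at 100 pM, nearly all from COL1A1, with COL1A2, FAP and POSTN at 0. Basal markers were the exception among the lists, with 118 to 146 CPM in vehicle and 193 to 236 CPM at 100 pM. Their 2 largest contributors, EGFR and CDH3, averaged 106 and 48.3 CPM over the 4 libraries, while KRT5, KRT14 and KRT17 were each under 0.4 CPM in all 4. Genes of the mitochondrial genome took 8.29% and 10.8% of counts in vehicle and 7.89% and 10.7% at 100 pM. In these 4 libraries the share differed more between replicate numbers than between vehicle and 100 pM. Within each number it was slightly lower at 100 pM.

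At 100 pM for 6 h most called genes rose, in a share that depended on the fit. Of 13872 genes with enough counts to test, edgeR's quasi-likelihood test called 399 higher (2.88%) and 84 lower (0.606%) at an adjusted p under 0.05. The rises had a median log2 fold change of 1.19, with 90 genes above 4-fold and 43 above 8-fold, and the falls had a median of -0.68, with 1 gene beyond 4-fold. Over all tested genes the median was -0.02. Rises came from every level of expression: 48 of the 399 lay under 1 CPM in vehicle, 72 between 1 and 10, 195 between 10 and 100 and 84 above. Of the falls, 79 of 84 began above 10 CPM, with 67.9% between 10 and 100 CPM and 26.2% above 100 CPM. Over all tested genes these shares were 53.3% and 15.9%, and among the rises 48.9% and 21.1%. The rises were thus spread over these levels much as all tested genes were. In all 483 called genes the groups did not overlap, with both 100 pM libraries above or both below the vehicle pair, which was also so for 17.1% (higher) and 19.6% (lower) of all tested genes. Of the rises, 5 had no count in either vehicle library and 7 had 1 to 3, so their fold changes have no firm size.

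With the replicate number as a block in the fit the calls grew to 1053 higher (7.59%) and 643 lower (4.64%), and all 483 genes kept their calls. The share of calls that rose was 82.6% without the block, 62.1% with it and 75.1% by DESeq2. Leaving out a single library gave fewer calls: 221 with vehicle 1 left out, 259 with vehicle 3, 308 with 100 pM 1 and 254 with 100 pM 3. A total of 174 genes were called higher (1.25%) and 11 lower (0.0793%) in each of 6 edgeR fits, namely the fit as designed, the fit with the block and those with 1 of the 4 libraries left out. These are called stable, and for any other called gene that is named the libraries without which it lost its call are given.

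**Figure D1:**
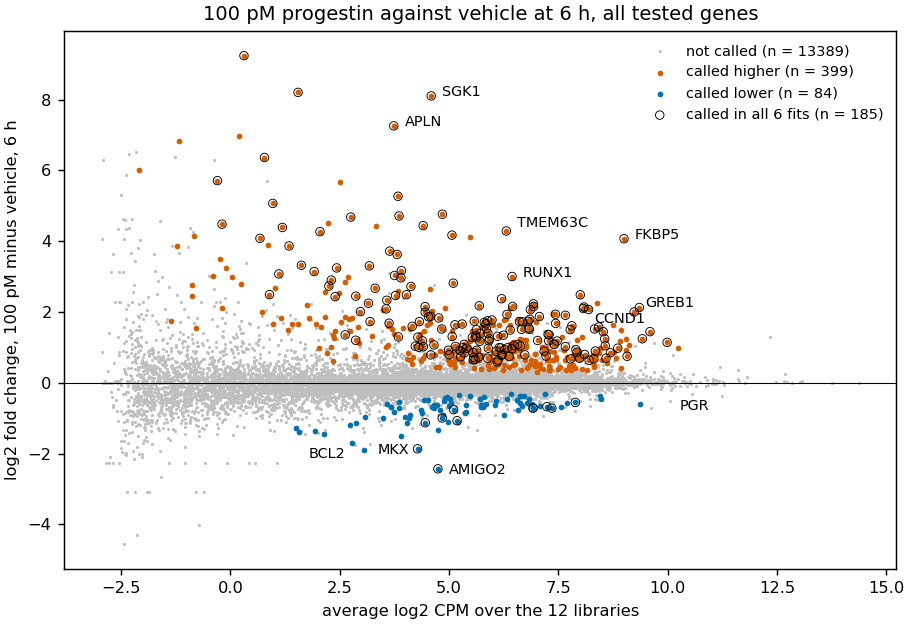
Each point is 1 of 13872 tested genes, with its average level over the 12 libraries on the horizontal axis (log2 CPM) and the log2 fold change of 100 pM over vehicle at 6 h on the vertical axis. Orange marks 399 genes called higher, blue 84 called lower, and a ring the 185 genes called in all 6 edgeR fits. Rises reach higher fold changes than falls, and SGK1, APLN, TMEM63C and FKBP5 stand above genes of like level.

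Promoters are shown for 4 stable genes that were picked because the window holds letters the receptor's family is known to bind. Of 44 named stable genes with an entry, 5 held a match to either motif. The other 39 held none. The hexamer of the hormone response element was searched as TGTTCT on both strands. The core that forms where 2 hexamers face each other over a 3-base spacer was searched as ACANNNTGT, which reads the same on both strands. Matches of the motifs may overlap. The windows are the 250 bases before the start in RefSeq's promoter table for GRCh38.p14. They are printed 5′ to 3′ on the gene's strand, with each match in capitals. Only the first entry of a gene was used, and 7811 repeat entries were left out. In STAT5A (chr17:42287189-42287438, plus strand), a relay of prolactin signals that rose, the hexamer lies on the opposite strand and begins 97 bases before the start.
STAT5A: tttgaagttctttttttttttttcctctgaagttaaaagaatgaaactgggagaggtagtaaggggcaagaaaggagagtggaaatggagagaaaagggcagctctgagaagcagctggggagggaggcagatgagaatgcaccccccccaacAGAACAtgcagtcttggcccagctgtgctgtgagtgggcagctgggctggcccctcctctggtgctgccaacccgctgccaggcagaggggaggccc
In NEDD4L (chr18:58046976-58047225, plus strand), a ubiquitin ligase of the epithelial sodium channel that rose, there are 2 cores, at 198 and 180 bases, and 1 hexamer at 78 bases before the start.
NEDD4L: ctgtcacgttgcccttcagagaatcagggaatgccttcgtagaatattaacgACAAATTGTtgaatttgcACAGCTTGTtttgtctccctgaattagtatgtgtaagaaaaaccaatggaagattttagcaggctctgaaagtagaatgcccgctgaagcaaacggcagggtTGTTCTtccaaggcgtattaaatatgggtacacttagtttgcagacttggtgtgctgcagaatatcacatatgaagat
In PDK4 (chr7:95596517-95596766, minus strand), an inhibitor of pyruvate dehydrogenase that rose, a hexamer begins 246 bases before the start.
PDK4: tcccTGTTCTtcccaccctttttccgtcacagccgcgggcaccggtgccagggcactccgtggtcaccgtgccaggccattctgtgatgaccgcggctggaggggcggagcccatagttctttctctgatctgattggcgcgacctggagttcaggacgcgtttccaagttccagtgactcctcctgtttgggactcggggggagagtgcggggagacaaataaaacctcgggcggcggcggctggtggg
In L3MBTL3 (chr6:130018331-130018580, plus strand), a reader of methylated lysine that fell, a hexamer begins 226 bases before the start.
L3MBTL3: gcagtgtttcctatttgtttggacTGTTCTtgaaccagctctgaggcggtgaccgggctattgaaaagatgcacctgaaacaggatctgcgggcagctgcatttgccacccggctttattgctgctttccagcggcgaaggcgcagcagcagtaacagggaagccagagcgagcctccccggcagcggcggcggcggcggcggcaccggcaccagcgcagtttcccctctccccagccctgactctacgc
Of the called rises, 303 of 399 had an entry in the table and 9.57% of those held the hexamer, against 3.23% of 62 falls, 7.58% of 10340 tested genes and 12.4% of all 27305 promoters. The core was in 3.96% of the rises, in 0.0% of the falls, in 2.43% of tested genes and in 4.68% of all promoters. SGK1 and FKBP5, both described next, had neither motif in the 1 window searched. Windows at any other start of a gene were not searched. A match is a run of letters, not a site shown to be bound.

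The 20 largest stable rises among genes at an average log2 CPM of 3 or more come first. Stable genes below that level rest on fewer reads and had fitted rises of up to 9.24. SGK1, a kinase that glucocorticoids and progestins induce and that keeps sodium channels at the membrane, measured 0.102 and 0.256 CPM in vehicle and 38.1 and 62.3 CPM at 100 pM, a rise of 8.11 ± 0.60. APLN, which encodes the hormone apelin, measured 0.127 and 0.205 CPM in vehicle and 28.3 and 23.6 CPM at 100 pM (7.26 ± 0.32). Neither gene's libraries came near those of the other group, and the edgeR adjusted p was 0.000172 for SGK1 and 2.13e-05 for APLN. TRIM22, an antiviral ubiquitin ligase, went from 0.585 and 0.205 CPM to 12.02 and 18.8 CPM. ZBTB7C, a zinc finger transcription factor, and SLC25A18, a mitochondrial glutamate carrier, rose 27.2-fold and 26.2-fold.

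The next of these rises were also by more than 10-fold from a low level. GJA1, which encodes the gap junction protein connexin 43, measured 3.23 and 1.95 CPM in vehicle and 68.5 and 44.03 CPM at 100 pM (4.44 ± 0.43, edgeR adjusted p 0.000645). TMEM63C, of a family of stretch-gated ion channels, measured 3.76 and 4.87 CPM in vehicle and 73.8 and 95.1 CPM at 100 pM (4.29 ± 0.34, edgeR adjusted p 0.000229). CHRM4, a muscarinic acetylcholine receptor, went from 1.04 and 1.46 CPM to 14.4 and 18.7 CPM, a rise of 3.72 ± 0.27. In each of these genes the lower of the 100 pM libraries was several times above the higher of the vehicle libraries. FAM105A had the smallest error of the 20, at 2.70 and 2.95 CPM in vehicle and 52.99 and 48.8 CPM at 100 pM (4.17 ± 0.11, edgeR adjusted p 5.47e-07).

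The 20 also held FKBP5, EGF, STAT5A and RUNX1, which are described with their lists, and 7 other genes. CHST11, which adds sulfate to chondroitin chains, rose 9.87-fold, from 1.91 and 1.33 CPM to 17.6 and 14.4 CPM. PLLP, a membrane proteolipid also found in myelin, rose by 3.03 ± 0.33, and ATP8B3, of the phospholipid flippase family, by 2.97 ± 0.29. SYBU, or syntabulin, which links vesicles to kinesin motors, measured 8.57 and 10.2 CPM in vehicle and 64.2 and 68.3 CPM at 100 pM (2.82 ± 0.28). FRK, a tyrosine kinase related to Src, rose by 2.72 ± 0.31, SIK1, a salt-inducible kinase, by 2.49 ± 0.28 and N4BP2L1 by 2.67 ± 0.25. The edgeR adjusted p of these 7 genes was 0.000102 (CHST11), 0.00131 (PLLP), 0.000616 (ATP8B3), 0.000694 (SYBU), 0.00164 (FRK), 0.00150 (SIK1) and 0.000500 (N4BP2L1).

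**Figure D2:**
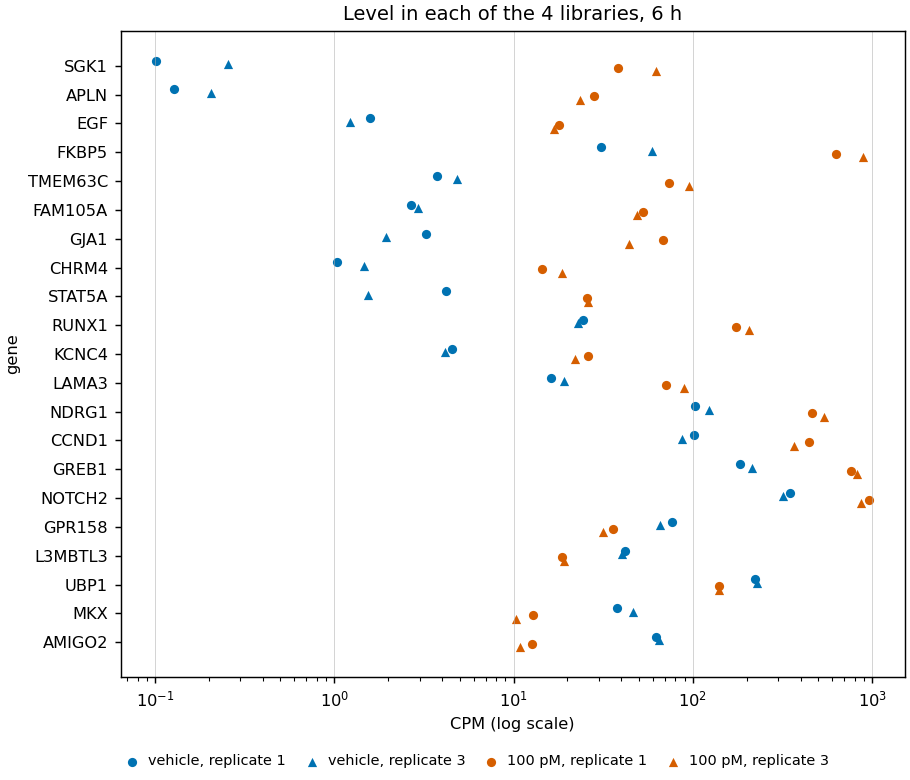
Level of 21 genes in each of the 4 libraries at 6 h, in CPM on a log scale, with vehicle in blue, 100 pM in orange, replicate 1 as circles and replicate 3 as triangles. All 21 are called in the 6 edgeR fits, and in none do the colours overlap. SGK1 and APLN move from under 1 CPM to over 20 CPM, while the 5 falls at the bottom move by less than 10-fold.

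Genes known to be induced by progestins or glucocorticoids had the largest share of rises among the 33 lists. Of 37 tested members 14 rose and 0 fell (22 and 1 with the block, 10 to 13 and 0 with 1 library left out), with a median log2 fold change of 0.94 beside -0.02 over all tested genes. The list was drawn up with results of these libraries known, so its count is a description. Of its members 37.8% rose. Over all tested genes, for this and every list below, 2.88% were called higher and 0.606% lower (7.59% and 4.64% with the block). Lists share members, so their counts overlap. SGK1, FKBP5, EGFR, KLF9, KLF15, ZBTB16, STAT5A and STAT5B, all called higher, are in this list and again in lists below. FKBP5, a co-chaperone that lowers the receptor's affinity for hormone, measured 30.6 and 59.4 CPM in vehicle and 627 and 885 CPM at 100 pM (4.07 ± 0.41). NDRG1, a stress- and differentiation-linked protein, measured 103 and 124 CPM in vehicle and 460.2 and 541 CPM at 100 pM (2.14 ± 0.13), and KLF15, a zinc finger factor of metabolic genes, 1.22 and 0.845 CPM in vehicle and 8.05 and 7.42 CPM at 100 pM (2.90 ± 0.23). PDK4, whose promoter is shown above, went from 3.51 and 3.94 CPM to 15.8 and 13.9 CPM (1.99 ± 0.13). HSD11B2, which inactivates cortisol, went from 2.72 and 2.33 CPM to 8.20 and 10.4 CPM (1.87 ± 0.23). These 5 genes were stable, with edgeR adjusted p of 0.000768 (FKBP5), 0.000102 (NDRG1), 0.000241 (KLF15), 0.000102 (PDK4) and 0.00225 (HSD11B2). ZBTB16, a zinc finger repressor induced by steroids, had 0 and 1 counts in vehicle and 1.08 and 2.998 CPM at 100 pM, and its call was lost without vehicle 1, vehicle 3 or 100 pM 3 (adjusted p 0.0553 to 0.124).

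The receptors themselves were not called in the fit without the replicate block. PGR, the gene of the progesterone receptor, measured 2111 and 1786 CPM in vehicle and 1540.2 and 1189 CPM at 100 pM (-0.51 ± 0.29, edgeR adjusted p 0.614). Each 100 pM library was below both vehicle libraries, but the difference did not pass the test. ESR1, the estrogen receptor gene, measured 204 and 242 CPM in vehicle and 139 and 165 CPM at 100 pM (-0.55 ± 0.19, edgeR adjusted p 0.240), and NR3C1, the glucocorticoid receptor gene, 22.2 and 21.2 CPM in vehicle and 15.3 and 14.2 CPM at 100 pM (-0.56 ± 0.20, edgeR adjusted p 0.263). With the replicate block the edgeR adjusted p fell to 0.00691 for PGR and 0.00346 for ESR1 and was 0.0635 for NR3C1. Of 16 co-chaperones FKBP5 was the 1 called, and with the block 2 rose. Of 23 coregulators GREB1, a hormone-induced partner of the estrogen receptor, was the 1 called, at 183 and 213 CPM in vehicle and 760.4 and 827 CPM at 100 pM (2.001 ± 0.12, edgeR adjusted p 0.000102). With the block 1 coregulator rose and 5 fell. Their medians were 0.05 for co-chaperones and -0.11 for coregulators. Without the block 6.25% of co-chaperones and 4.35% of coregulators were called higher, beside 2.88% over all tested genes.

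Paracrine and growth factor ligands moved in both directions, with 15.4% called higher and 7.69% lower (2.88% and 0.606% over all tested genes). Of 26 tested ligands 4 rose and 2 fell (4 and 5 with the block, 3 and 0 to 2 with 1 library left out), with a median of -0.16. Besides APLN, the stable rises were EGF, the ligand of the epidermal growth factor receptor, at 1.58 and 1.23 CPM in vehicle and 17.9 and 16.8 CPM at 100 pM (3.63 ± 0.23, edgeR adjusted p 0.000102), and IGF1, the insulin-like growth factor, at 0.127 and 0.128 CPM in vehicle and 2.20 and 2.23 CPM at 100 pM (4.08 ± 0.53, edgeR adjusted p 0.00320). IGF1 thus remained near 2 CPM after a 16.9-fold rise. CXCL12, a chemokine of stromal and luminal cells, fell from 22.9 and 21.6 CPM to 9.28 and 8.51 CPM (-1.32 ± 0.21, edgeR adjusted p 0.00882) and lost its call without vehicle 1, 100 pM 1 or 100 pM 3 (adjusted p 0.0589 to 0.0823). Paracrine mediators best known from the mouse gland were not called here: WNT4 measured 2.98 and 4.28 CPM in vehicle and 2.91 and 2.998 CPM at 100 pM (-0.30 ± 0.32, edgeR adjusted p 0.937), AREG, or amphiregulin, stayed under 0.4 CPM (-0.43 ± 0.53, edgeR adjusted p 0.957), and TNFSF11, which encodes RANKL, had 0 counts in all 4 libraries.

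Of 33 growth factor and cytokine receptors 3 rose and 1 fell (6 and 5 with the block, 0 to 2 and 0 with 1 library left out), and none was stable. EGFR, the receptor of EGF, measured 75.8 and 49.7 CPM in vehicle and 168 and 129.8 CPM at 100 pM (1.25 ± 0.22, edgeR adjusted p 0.0174), a call lost without vehicle 3 or 100 pM 1 (adjusted p 0.0958 to 0.105). EGFR is also counted as a basal marker and carried the rise of that list's sum. IL6ST, the shared signalling subunit gp130, measured 265 and 224 CPM in vehicle and 527 and 500.2 CPM at 100 pM (1.07 ± 0.19, edgeR adjusted p 0.0156), a call lost with any of the 4 libraries left out (adjusted p 0.0612 to 0.143). ERBB2, or HER2, was lower, at 473 and 496 CPM in vehicle and 373 and 372 CPM at 100 pM (-0.38 ± 0.08, edgeR adjusted p 0.0404), a call lost with any of the 4 libraries left out (adjusted p 0.137 to 0.256). Downstream, 1 of 31 feedback regulators of kinase pathways rose (7 rose and 8 fell with the block). The gene was SPRED2, an inhibitor of the Ras to MAP kinase path, and it was stable. SPRED2 measured 50.8 and 47.1 CPM in vehicle and 128 and 121 CPM at 100 pM (1.34 ± 0.09, edgeR adjusted p 0.000118). Calls higher were 9.09% of the receptors and 3.23% of the feedback regulators, beside 2.88% over all tested genes. Of the receptors 3.03% fell, beside 0.606%.

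Of 27 KLF and ZBTB zinc finger factors 6 rose and 0 fell (11 and 1 with the block, 3 to 5 and 0 with 1 library left out), at a median of 0.13. BCL6, a repressor that restrains STAT targets, measured 82.8 and 95.8 CPM in vehicle and 187 and 219 CPM at 100 pM (1.18 ± 0.15, edgeR adjusted p 0.00312) and was stable, as were KLF15 and ZBTB7C. KLF9, a partner of the progesterone receptor in endometrium, measured 5.14 and 6.81 CPM in vehicle and 16.9 and 19.6 CPM at 100 pM (1.61 ± 0.23, edgeR adjusted p 0.00466) and lost its call without vehicle 1 (adjusted p 0.0545). Of 34 lineage factors 6 rose and 0 fell (10 and 6 with the block), at a median of -0.04. Calls higher were 22.2% of the zinc finger factors and 17.6% of the lineage factors, beside 2.88% over all tested genes. RUNX1, a factor of luminal identity, measured 24.4 and 22.9 CPM in vehicle and 175 and 205 CPM at 100 pM (3.003 ± 0.13), and GRHL2, an epithelial factor, 194 and 201 CPM in vehicle and 620.3 and 555 CPM at 100 pM (1.58 ± 0.08). In both the replicates lay far closer than the groups, and the genes had edgeR adjusted p of 2.00e-05 for RUNX1 and 5.82e-05 for GRHL2. The prolactin relays STAT5A and STAT5B were stable rises as well, at 4.20 and 1.54 CPM in vehicle and 25.8 and 25.9 CPM at 100 pM for STAT5A (3.17 ± 0.50) and 81.2 and 76.7 CPM in vehicle and 129 and 144 CPM at 100 pM for STAT5B (0.79 ± 0.09). ELF5, the alveolar factor that acts with them, measured 314 and 351 CPM in vehicle and 471 and 558 CPM at 100 pM (0.63 ± 0.15, edgeR adjusted p 0.0579), outside the threshold. With the block its adjusted p was 0.00214.

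Of 25 tested genes of sodium, water and proton transport 7 rose and 0 fell (8 and 1 with the block, 4 to 7 and 0 with 1 library left out), at a median of 0.19. NEDD4L measured 60.6 and 61.7 CPM in vehicle and 121 and 130.2 CPM at 100 pM (1.04 ± 0.07, edgeR adjusted p 0.000130). SGK1, described above, is a kinase that phosphorylates NEDD4L and inhibits it. AQP3, a channel for water and glycerol, measured 4.04 and 4.30 CPM in vehicle and 12.2 and 13.02 CPM at 100 pM (1.59 ± 0.19), and CA12, a carbonic anhydrase at the cell surface, 91.8 and 97.9 CPM in vehicle and 147 and 156 CPM at 100 pM (0.68 ± 0.09), with edgeR adjusted p of 0.00190 and 0.00316. All 4 genes were stable. Of 27 potassium and chloride channels 4 rose and 1 fell (6 and 2 with the block), at a median of 0.07. Thus 28% of the transport genes and 14.8% of the channels rose and 3.70% of the channels fell. Over all tested genes the shares were 2.88% and 0.606%. KCNC4, a fast voltage-gated channel, measured 4.53 and 4.12 CPM in vehicle and 25.9 and 21.96 CPM at 100 pM (2.47 ± 0.15), KCNH1, a channel linked to cell division, 6.94 and 5.12 CPM in vehicle and 27.9 and 25.8 CPM at 100 pM (2.15 ± 0.19), and KCNJ11, the pore of the ATP-sensitive channel, 18.2 and 17.9 CPM in vehicle and 61.3 and 52.9 CPM at 100 pM (1.66 ± 0.16). The 3 rises were stable, with edgeR adjusted p of 0.000102 (KCNC4), 0.000361 (KCNH1) and 0.000530 (KCNJ11). The fall was KCNK5, an acid-sensitive leak channel, at 20.9 and 15.4 CPM in vehicle and 5.73 and 4.03 CPM at 100 pM (-1.89 ± 0.30, edgeR adjusted p 0.00841), lost without vehicle 1 or 100 pM 3 (adjusted p 0.0660 to 0.0712).

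Of 4 lists of metabolic genes described next 2.63% to 7.14% of members were called higher, beside 2.88% over all tested genes. Of 42 genes of glucose and pyruvate use 3 rose and 0 fell (5 and 1 with the block, 1 and 0 with 1 library left out), at a median of 0.03, and PDK4 was the stable 1. PFKFB3, which makes the activator of phosphofructokinase, measured 71.9 and 62.5 CPM in vehicle and 183 and 149 CPM at 100 pM (1.31 ± 0.25, edgeR adjusted p 0.0255) and lost its call with any of the 4 libraries left out (adjusted p 0.0640 to 0.203). Of 38 fatty acid and lipid storage genes 1 rose (8 rose and 1 fell with the block): PLIN2, a lipid droplet coat protein, at 11.1 and 11.6 CPM in vehicle and 18.4 and 17.9 CPM at 100 pM (0.68 ± 0.10, edgeR adjusted p 0.00492), lost without vehicle 1 (adjusted p 0.0627). HSD11B2 was the called gene among 20 steroid enzymes (3 rose with the block). Of 34 ATF4 targets and amino acid transporters 2 rose (9 rose and 1 fell with the block, 0 to 1 rose with 1 library left out). SLC7A8, a carrier of neutral amino acids, measured 28.9 and 32.2 CPM in vehicle and 121 and 79.95 CPM at 100 pM (1.72 ± 0.27, edgeR adjusted p 0.00957), a call lost without vehicle 1 or vehicle 3 (adjusted p 0.0689 to 0.0987).

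In the lists of cyclins and their kinases, replication genes and mitosis genes, the call that held in the 6 fits was the rise of CCND1. This gene of cyclin D1, the partner of CDK4 and CDK6 in G1, measured 101 and 87.4 CPM in vehicle and 444 and 365 CPM at 100 pM (2.10 ± 0.17, edgeR adjusted p 0.000259). It was the 1 call among 29 cyclins, kinases and inhibitors, or 3.45%, beside 2.88% over all tested genes (9 rose and 2 fell with the block). Of 51 replication and S phase genes 1 rose (1.96%) and 0 fell at 6 h, at a median of 0.35. With the block 14 rose and 0 fell. The gene called was GINS2, a part of the replicative helicase, at 18.4 and 26.4 CPM in vehicle and 66.9 and 90.3 CPM at 100 pM (1.81 ± 0.35, edgeR adjusted p 0.0239), and it lost its call with any of the 4 libraries left out (adjusted p 0.0540 to 0.197). Of 35 mitosis genes 0 were called by edgeR (1 rose with the block, 0 by DESeq2, 0 at an unadjusted p under 0.05), at a median of 0.07. MKI67, a marker of cycling cells, measured 63.3 and 72.1 CPM in vehicle and 64.8 and 82.3 CPM at 100 pM (0.12 ± 0.38, edgeR adjusted p 1), and MYC 32.8 and 31.8 CPM in vehicle and 39.97 and 24.4 CPM at 100 pM (-0.005 ± 0.33, edgeR adjusted p 1). The replicates of MYC differed more from each other than the groups did.

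In the BCL2 family, which sets the threshold for apoptosis, 2 of 18 genes rose and 1 fell (2 and 2 with the block, 0 to 2 and 0 to 1 with 1 library left out), and none was stable. BCL2L1, which encodes the protective BCL-XL, measured 272 and 294 CPM in vehicle and 467 and 446 CPM at 100 pM (0.69 ± 0.11, edgeR adjusted p 0.00904), lost without vehicle 1 (adjusted p 0.0953). MCL1, a short-lived protective member, measured 465 and 386 CPM in vehicle and 875 and 729 CPM at 100 pM (0.91 ± 0.17, edgeR adjusted p 0.0180), lost without vehicle 1, vehicle 3 or 100 pM 1 (adjusted p 0.0585 to 0.159). BCL2 itself moved the other way, at 18.2 and 11.4 CPM in vehicle and 5.51 and 3.54 CPM at 100 pM (-1.71 ± 0.33, edgeR adjusted p 0.0264), lost without vehicle 1, 100 pM 1 or 100 pM 3 (adjusted p 0.0543 to 0.181).

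Genes known as targets of estrogen split, with 25% called higher and 5.56% lower (2.88% and 0.606% over all tested genes). Of 36 tested members 9 rose and 2 fell (13 and 9 with the block, 6 to 7 and 0 to 1 with 1 library left out), at a median of 0.08. Along with GREB1 and CCND1, the stable rises included MYBL1, a cell cycle transcription factor, at 85.6 and 88.04 CPM in vehicle and 258 and 236 CPM at 100 pM (1.51 ± 0.10, edgeR adjusted p 0.000102). CHPT1, an enzyme of phosphatidylcholine synthesis, measured 27.9 and 31.99 CPM in vehicle and 122 and 145 CPM at 100 pM (2.16 ± 0.16, edgeR adjusted p 0.000168). STC2, a secreted glycoprotein, measured 99.3 and 89.6 CPM in vehicle and 251 and 212 CPM at 100 pM (1.29 ± 0.24, edgeR adjusted p 0.0215), a call lost with any of the 4 libraries left out (adjusted p 0.0677 to 0.176). The cells were in phenol red-free medium with stripped serum, and the labels name no estrogen for any group. The cause of these changes was not tested.

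Notch and Wnt genes moved in both directions, with 4 of 45 higher and 4 lower (5 and 8 with the block, 2 to 4 and 0 to 2 with 1 library left out), at a median of -0.09. The receptor NOTCH2 measured 349 and 320.1 CPM in vehicle and 961 and 863 CPM at 100 pM (1.45 ± 0.14) and its ligand JAG1 7.28 and 5.46 CPM in vehicle and 19.8 and 19.9 CPM at 100 pM (1.64 ± 0.19), both stable, with edgeR adjusted p of 0.000689 and 0.00177. HEY2, a repressor that Notch induces, was lower, at 4.53 and 5.25 CPM in vehicle and 2.06 and 1.71 CPM at 100 pM (-1.37 ± 0.25, edgeR adjusted p 0.0176), lost with any of the 4 libraries left out (adjusted p 0.0673 to 0.140). LEF1, a nuclear partner of beta-catenin, measured 3.28 and 5.99 CPM in vehicle and 23.7 and 31.8 CPM at 100 pM (2.58 ± 0.37, edgeR adjusted p 0.00570) and lost its call without vehicle 1 (adjusted p 0.0516). The related factor TCF7L1 fell, at 34.8 and 41.3 CPM in vehicle and 24.1 and 23.2 CPM at 100 pM (-0.68 ± 0.10, edgeR adjusted p 0.00675), lost without vehicle 3, 100 pM 1 or 100 pM 3 (adjusted p 0.0517 to 0.0659). Of 49 adhesion and junction genes 1 rose and 2 fell (1 and 6 with the block, 1 and 1 to 2 with 1 library left out), at a median of -0.06. LAMA3, a laminin chain of epithelial basement membranes, measured 16.2 and 19.2 CPM in vehicle and 70.4 and 89.4 CPM at 100 pM (2.18 ± 0.14, edgeR adjusted p 0.000102) and was stable. Of the Notch and Wnt genes 8.89% were called each way. Rises were 2.04% of adhesion and 2.44% of axon guidance genes, beside 2.88% over all tested genes. Falls were 4.08% and 4.88% of these lists and 3.85% of TGF-beta and BMP targets, beside 0.606%. Of 41 axon guidance genes 1 rose and 2 fell (5 and 7 with the block, 0 and 0 with 1 library left out), and of 26 TGF-beta and BMP targets 0 rose and 1 fell (1 and 4 with the block, 0 to 1 and 0 with 1 library left out), none of them stable.

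Of 23 circadian clock genes 4 rose and 1 fell (6 and 5 with the block, 0 to 3 and 0 with 1 library left out), at a median of -0.08. PER1, a repressor of the clock with a glucocorticoid-responsive promoter, measured 13.6 and 17.1 CPM in vehicle and 42.4 and 47.9 CPM at 100 pM (1.56 ± 0.22, edgeR adjusted p 0.00490) and lost its call without vehicle 1 (adjusted p 0.0598). CRY2, its partner, measured 46.6 and 52.7 CPM in vehicle and 81.3 and 97.1 CPM at 100 pM (0.85 ± 0.14, edgeR adjusted p 0.0134), lost without vehicle 1, vehicle 3 or 100 pM 3 (adjusted p 0.0560 to 0.127). TEF, an output factor of the clock, fell from 18.5 and 19.7 CPM to 12.7 and 12.5 CPM (-0.61 ± 0.10, edgeR adjusted p 0.0114), lost with any of the 4 libraries left out (adjusted p 0.0641 to 0.109). Of 49 interferon-stimulated genes 3 rose and 1 fell (5 and 2 with the block, 1 to 2 and 1 with 1 library left out), at a median of -0.03. TRIM22 and TRIM25 were the stable members, in opposite directions, and PARP9, of an antiviral complex, measured 30.4 and 28.99 CPM in vehicle and 69.5 and 94.9 CPM at 100 pM (1.47 ± 0.22, edgeR adjusted p 0.00636), a call lost without vehicle 1 or vehicle 3 (adjusted p 0.0597 to 0.0649). Of 31 unfolded protein response genes 2 rose (3 with the block, 0 to 2 with 1 library left out), among them CREB3L2, a membrane-bound transcription factor of the OASIS family, at 88.4 and 109.9 CPM in vehicle and 180.4 and 193 CPM at 100 pM (0.91 ± 0.14, edgeR adjusted p 0.00715), lost without vehicle 1 or 100 pM 3 (adjusted p 0.0660 to 0.0686).

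In the clock, interferon-stimulated, unfolded protein response and BCL2 lists above, 17.4%, 6.12%, 6.45% and 11.1% were called higher. Lower calls were 4.35%, 2.04%, 0% and 5.56%. Over all tested genes the shares were 2.88% higher and 0.606% lower. The remaining 7 lists held no call from edgeR without the block. They are 22 immediate-early and AP-1 factors, 31 cholesterol genes, 20 secretory and apocrine genes, 30 NF-kB and inflammatory genes, 45 ribosome biogenesis genes, 38 oxidative phosphorylation genes and 19 heat shock genes. The medians of 6 of the 7 lay between -0.12 and 0.11, and that of the secretory and apocrine genes was 0.41, with 15 of 20 above 0. With the block 7 secretory genes, 4 immediate-early factors, 2 heat shock genes and 1 gene each of the cholesterol, NF-kB and ribosome lists rose, 3 cholesterol and 3 NF-kB genes fell, and no oxidative phosphorylation gene was called. DESeq2 called 3 secretory genes and 1 immediate-early factor higher and 1 NF-kB gene lower. At an unadjusted p under 0.05 edgeR had 4 secretory genes, 2 each of the immediate-early, cholesterol and NF-kB lists, 1 each of the ribosome and heat shock lists and 0 of the oxidative phosphorylation list.

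**Figure D3:**
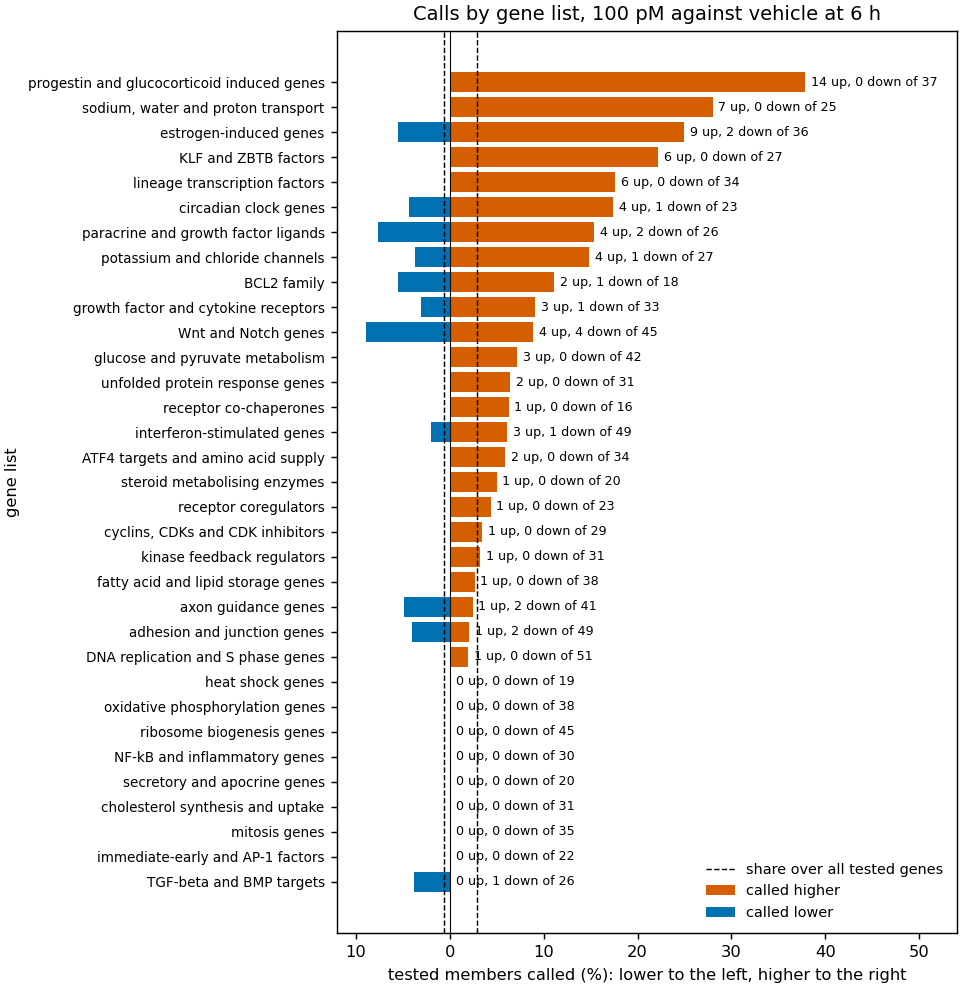
For each of 33 gene lists the bars give the percentage of tested members called higher (orange, to the right) and lower (blue, to the left) at 100 pM against vehicle at 6 h, with the counts beside them. Dashed lines mark 2.88% higher and 0.606% lower, the shares over all tested genes. The progestin and glucocorticoid list reaches furthest, with 14 of 37, and 9 lists have no member called higher.

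The 11 stable falls had a median log2 fold change of -0.76, beside 1.52 for the 174 stable rises. AMIGO2, an adhesion protein known from neurons, measured 62.7 and 64.8 CPM in vehicle and 12.7 and 10.9 CPM at 100 pM (-2.43 ± 0.19, edgeR adjusted p 0.000192) and was the 1 fall beyond 4-fold. MKX, a homeobox factor of tendon, measured 37.95 and 46.5 CPM in vehicle and 12.9 and 10.3 CPM at 100 pM (-1.86 ± 0.22, edgeR adjusted p 0.00172). L3MBTL3, whose promoter is shown above, measured 41.7 and 40.5 CPM in vehicle and 18.5 and 19.1 CPM at 100 pM (-1.13 ± 0.10), and GPR158, an orphan-class receptor, 76.1 and 65.3 CPM in vehicle and 35.9 and 31.4 CPM at 100 pM (-1.07 ± 0.13), with edgeR adjusted p of 0.000339 and 0.00247. In these 4 genes the replicates of a group lay close together and the groups well apart. PXK, a phosphoinositide-binding kinase-like protein, fell from 52.2 and 41.8 CPM to 24.8 and 22.4 CPM, and NUDT19, a hydrolase of coenzyme A, from 53.8 and 53.1 CPM to 31.5 and 31.7 CPM. Above 100 CPM the falls were by less than 2-fold. MEGF9, a membrane protein with EGF-like domains, measured 256 and 254 CPM in vehicle and 161 and 149 CPM at 100 pM (-0.72 ± 0.08), CBX6, a Polycomb protein, 169 and 161 CPM in vehicle and 103 and 98.4 CPM at 100 pM (-0.71 ± 0.09), and TRIM25, the ubiquitin ligase of the RIG-I sensor, 188 and 202 CPM in vehicle and 109.7 and 129 CPM at 100 pM (-0.71 ± 0.09). UBP1, a transcription factor of the CP2 family, measured 222 and 227 CPM in vehicle and 141 and 140.4 CPM at 100 pM (-0.67 ± 0.06), and GALNT10, which starts mucin-type sugar chains, 338 and 338 CPM in vehicle and 234 and 227 CPM at 100 pM (-0.55 ± 0.07). The edgeR adjusted p of these 5 was 0.00155 (MEGF9), 0.00330 (CBX6), 0.00323 (TRIM25), 0.000490 (UBP1) and 0.00211 (GALNT10).

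Ratios taken within a replicate number gave the same direction in 1 and in 3 for 9903 of 13872 tested genes. For all 399 rises and all 84 falls the agreement follows from groups that do not overlap, so it is no further check. The median gap between the log2 ratios of the numbers was 0.15 for rises and 0.10 for falls, beside 0.10 over all tested genes (0.5 CPM added to each level). The largest gaps among called genes were in TRIM22, STAT5A and CASQ1, each low in vehicle. STAT5A was 6.14-fold higher in replicate 1 and 16.8-fold in replicate 3, with equal levels at 100 pM but 4.20 and 1.54 CPM in vehicle. TRIM22 was 20.5-fold and 91.7-fold higher. CASQ1, a calcium-binding protein of muscle, had 1 count in each vehicle library and 1.30 and 3.48 CPM at 100 pM.

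**Figure D4:**
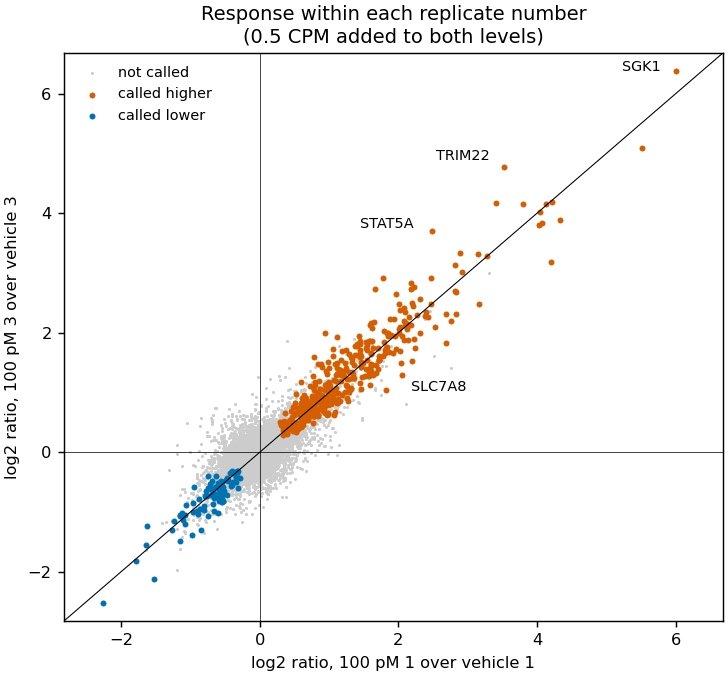
Each point is a tested gene, with the log2 ratio of 100 pM 1 over vehicle 1 on the horizontal axis and that of 100 pM 3 over vehicle 3 on the vertical axis (0.5 CPM added to both levels); the diagonal marks equal ratios. All called genes lie in the quadrants where both numbers agree in direction, as they must where the groups do not overlap. TRIM22 and STAT5A lie above the diagonal and SLC7A8 below it.

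At the same time point 10 nM is the higher dose, and its direct comparison with 100 pM called 2795 genes higher (20.1%) and 2332 lower (16.8%), 5127 in all, or 3293 with 100 pM 3 left out and 8231 with the block. This comparison shares the 100 pM libraries with the comparison against vehicle, so values for the named genes are set side by side and no overlap is counted. Several large rises were not called different between the doses. FAM105A was at 52.99 and 48.8 CPM at 100 pM and 47.6 and 48.8 CPM at 10 nM (-0.08 ± 0.09, edgeR adjusted p 0.527), CCND1 at 444 and 365 CPM and 452 and 452 CPM (0.16 ± 0.16, edgeR adjusted p 0.484) and GREB1 at 760.4 and 827 CPM and 881 and 1009 CPM (0.25 ± 0.12, edgeR adjusted p 0.130). Other genes were further along at 10 nM: ZBTB7C rose from 11.1 and 9.91 CPM to 86.03 and 97.5 CPM (3.13 ± 0.39), PFKFB3 from 183 and 149 CPM to 748 and 738 CPM (2.16 ± 0.26) and CA12 from 147 and 156 CPM to 532 and 526 CPM (1.81 ± 0.09), with edgeR adjusted p of 0.000423, 0.000326 and 6.31e-06. AMIGO2 fell on, to 1.27 and 1.27 CPM at 10 nM (-3.21 ± 0.22, edgeR adjusted p 1.79e-05). A difference that edgeR did not call does not show that the doses act alike.

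Other genes were highest at 100 pM. RUNX1 measured 24.4 and 22.9 CPM in vehicle, 175 and 205 CPM at 100 pM and 27.2 and 32.05 CPM at 10 nM, so its 10 nM libraries were just above vehicle (-2.68 ± 0.12 against 100 pM, edgeR adjusted p 5.40e-06). MYBL1 measured 85.6 and 88.04, 258 and 236 and 81.4 and 77.8 CPM in the same order (-1.64 ± 0.10, edgeR adjusted p 1.01e-05). ELF5, not called against vehicle, measured 314 and 351, 471 and 558 and 108 and 99.6 CPM, so its 10 nM libraries were below vehicle (-2.31 ± 0.15 against 100 pM, edgeR adjusted p 1.71e-05). SGK1 was lower at 10 nM too, at 8.996 and 18.1 CPM (-1.89 ± 0.39, edgeR adjusted p 0.00555), but far above vehicle. Among genes of low level NHS, the Nance-Horan syndrome gene, measured 0.153 and 0.307, 2.28 and 3.03 and 0.221 and 0.367 CPM (-3.16 ± 0.49, edgeR adjusted p 0.00123), and its call against vehicle was lost without vehicle 1 (adjusted p 0.0635). RANBP3L measured 0.839 and 1.998, 21.5 and 40.03 and 3.07 and 8.15 CPM (-2.45 ± 0.67, edgeR adjusted p 0.0204), and its call was lost without vehicle 1, vehicle 3 or 100 pM 3 (adjusted p 0.0643 to 0.124).

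The opposite order, lowest at 100 pM, was seen in both the chemokine CXCL12 and its receptor CXCR4. CXCL12 measured 22.9 and 21.6, 9.28 and 8.51 and 28.1 and 36.7 CPM in vehicle, 100 pM and 10 nM (1.87 ± 0.21 for 10 nM against 100 pM, edgeR adjusted p 0.000236). CXCR4 measured 7.20 and 6.38, 4.11 and 2.80 and 15.1 and 12.1 CPM (1.97 ± 0.20, edgeR adjusted p 0.000116). TCF7L1 measured 34.8 and 41.3, 24.1 and 23.2 and 101 and 111 CPM (2.16 ± 0.11, edgeR adjusted p 6.03e-06), and DEPTOR, an inhibitor of the mTOR kinase, 37.7 and 41.6, 23.7 and 20.8 and 63.1 and 57.6 CPM (1.44 ± 0.14, edgeR adjusted p 9.65e-05). In all 4 genes the 100 pM libraries lay below the other 4. Against vehicle none of these falls was stable. CXCR4 (-0.97 ± 0.19, edgeR adjusted p 0.0280) lost its call without vehicle 1, vehicle 3 or 100 pM 3 (adjusted p 0.0931 to 0.180), DEPTOR (-0.83 ± 0.14, edgeR adjusted p 0.0107) without vehicle 3 or 100 pM 3 (adjusted p 0.0824 to 0.0861), CXCL12 without vehicle 1, 100 pM 1 or 100 pM 3 (adjusted p 0.0589 to 0.0823) and TCF7L1 without vehicle 3, 100 pM 1 or 100 pM 3 (adjusted p 0.0517 to 0.0659).

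The 18 h groups share no library with those at 6 h. Both comparisons came from the same fit, with a shared estimate of spread for each gene and the same replicate numbers. Calls at these times are therefore not independent. At 18 h edgeR called 911 genes higher (6.57%) and 539 lower (3.89%) at 100 pM against vehicle, 1450 in all, or 4728 with the block. Of the 399 rises at 6 h 323 (81.0%) were called higher again and 0 lower, and these were 35.5% of the 911. Of the 84 falls 65 (77.4%) were called lower again and 0 higher, or 12.1% of the 539. Among stable genes 165 of 174 rises and 11 of 11 falls were called in the same direction at 18 h. The rises had a median log2 fold change of 1.01 at 18 h and the falls a median of -0.75. At 10 nM for 18 h edgeR called 2631 genes higher (19.0%) and 2103 lower (15.2%) against vehicle, 4734 in all, or 7767 with the block. There 284 of the 399 rises were called higher and 15 lower, and 63 of the 84 falls lower and 12 higher. MYBL1 was among those that turned, at 70.5 and 79.9 CPM in vehicle and 62.6 and 54.6 CPM at 10 nM (-0.36 ± 0.09, edgeR adjusted p 0.0180), as were CXCL12, at 26.5 and 21.4 CPM and 57.6 and 73.3 CPM (1.45 ± 0.20, edgeR adjusted p 0.000779), and TCF7L1 (1.22 ± 0.10, edgeR adjusted p 4.44e-05).

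Named genes are given next at 18 h. SGK1 measured 0.308 and 0.352 CPM in vehicle and 34.3 and 49.8 CPM at 100 pM (6.98 ± 0.56), FKBP5 28.1 and 44.4 CPM and 774 and 855 CPM (4.49 ± 0.42) and RUNX1 28.1 and 25.7 CPM and 202 and 175 CPM (2.81 ± 0.12). APLN was lower in fold, at 5.58 and 5.01 CPM and 4.40 ± 0.30, and AQP3 higher, at 6.01 and 4.50 CPM and 81.1 and 59.6 CPM (3.74 ± 0.20). The test of the difference between the times called neither, at edgeR adjusted p 0.209 for APLN (-2.86 ± 0.51) and 0.0658 for AQP3 (2.15 ± 0.26). That test called 2 of 13872 genes (0.0144%), with 988 at an unadjusted p under 0.05, 108 called by DESeq2 and 777 by edgeR with the block, and it called 0 genes with any of its 8 libraries left out. Of 51 replication genes 32 rose at 18 h, with a median of 1.48, beside 6.57% called higher over all tested genes. At 6 h 1 rose, and the difference between the times was called in none of the 51. PGR at 18 h measured 1846 and 1379 CPM in vehicle and 627 and 393 CPM at 100 pM (-1.66 ± 0.29, edgeR adjusted p 0.00943), ESR1 165 and 189 CPM and 99.1 and 96.9997 CPM (-0.85 ± 0.19, edgeR adjusted p 0.0257), and for both the difference from 6 h was not called (-1.15 ± 0.41, edgeR adjusted p 0.626, for PGR, and -0.30 ± 0.27, edgeR adjusted p 0.949, for ESR1). These single-gene tests of time came from the fit without the block, which counts the difference between replicate numbers as spread. A difference that was not called is therefore not shown to be absent.

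**Figure D5:**
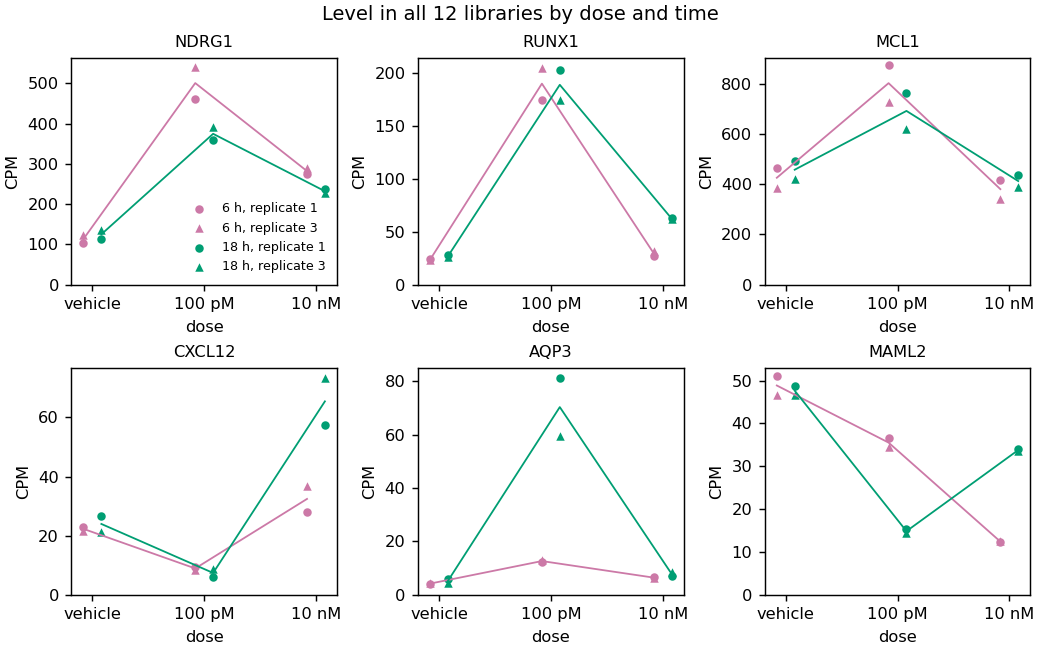
Level in CPM of 6 genes in all 12 libraries by dose, at 6 h (pink) and 18 h (green), with replicate 1 as circles, replicate 3 as triangles and lines through the means of 2 replicates. NDRG1, RUNX1 and MCL1 are highest at 100 pM at both times, CXCL12 is lowest at 100 pM, AQP3 is far higher at 100 pM for 18 h than for 6 h, and MAML2 is lowest at 10 nM at 6 h and at 100 pM at 18 h.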

How the data were processed

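The deposited table holds raw counts of reads per gene symbol, which the authors made from total RNA (Nextera libraries, per the labels) with STAR and hg19, per the submitters' processing notes. These also name DESeq2. The sources used here give no versions, counter, annotation or strand setting, so overlapping or antisense genes may share reads. The re-analysis ran in R 4.3.3 with edgeR 4.0.16, and with DESeq2 1.42.0 as an alternative. filterByExpr kept 13872 of 20114 genes and TMM scaled the libraries. A robust quasi-likelihood fit over 12 libraries had a coefficient for each of 6 groups (6 residual degrees of freedom), and p-values were adjusted by Benjamini-Hochberg, with a threshold of 0.05. Fits with 1 library left out take the spread of that library's group from the rest.

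Replicate numbers pair the samples in the data: deviations from group means correlated with r of 0.464 to 0.677 (across genes, 15 pairs of groups, 0.677 for the groups compared). With the block edgeR's common estimate of variation between replicates (the biological coefficient of variation) was 0.0678, against 0.163 without it. The fit without the block counts the difference between numbers as spread, so a gene it did not call is not shown to be unchanged. The labels do not say what the numbers share, so the block is an alternative.

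Named genes are the 20 largest stable rises and up to 12 stable falls at an average log2 CPM of 3 or more, up to 4 called members per list, a fixed set including PGR, ESR1, NR3C1 and MYC, and genes by dose order, time difference or within-number gap; clone, antisense and pseudogene names were left out, and some named genes are omitted for length. The 33 lists, 6 marker lists and the rule were chosen with earlier results of these data known. MYBL1, CXCL12 and TCF7L1 at 18 h, and the comparisons at 18 h against vehicle, were added after values were seen. Of 54 named stable genes 44 had a RefSeq promoter. The scripts were tested on simulated data.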

Additional observations from a re-analysis of the deposited data

Results flagged for a closer look

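The response to 100 pM differed between 18 h and 6 h in 2 genes by edgeR's test of the difference. MAML2, a coactivator of Notch, measured 50.98 and 46.7 CPM in vehicle and 36.5 and 34.6 CPM at 100 pM at 6 h (-0.46 ± 0.08, edgeR adjusted p 0.0139). That call was lost without vehicle 1 or 100 pM 3 (adjusted p 0.0844 to 0.131). At 18 h MAML2 measured 48.8 and 46.5 CPM in vehicle and 15.3 and 14.3 CPM at 100 pM (-1.68 ± 0.08). Its change at 18 h minus that at 6 h was -1.223 (SE 0.1134, edgeR adjusted p 0.0333). NPNT, or nephronectin, an extracellular matrix protein, measured 65.1 and 70.1 CPM in vehicle and 56.1 and 56.9 CPM at 100 pM at 6 h (-0.26 ± 0.07) and 70.4 and 66.8 CPM and 27.8 and 29.3 CPM at 18 h (-1.26 ± 0.07). Its difference was -1.006 (SE 0.1043, edgeR adjusted p 0.04163). All 4 100 pM libraries were below the vehicle libraries of their time in both genes. Neither call of a difference between the times held with any of the 8 libraries left out.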

How the results depend on the processing

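For 100 pM against vehicle at 6 h the 483 calls became 849 with DESeq2, 1696 with the replicate block and 184 in a fit of the 4 libraries alone, and 221 to 308 with 1 library left out. They stayed within 1.5 times with the 6 h libraries alone (343), DESeq2's size factors in edgeR (488), a filter of 1 CPM in 4 libraries (499) and no filter (477). For 10 nM against 100 pM at 6 h the 5127 calls became 8231 with the replicate block and 3293 to 4257 with 1 library left out. For the difference between times the 2 calls became 108 with DESeq2, 1 with DESeq2's size factors, 6 with the stricter filter, 5 with no filter, 777 with the replicate block and 0 with any 1 library left out (644 to 1143 at an unadjusted p under 0.05). No named gene changed direction past the threshold. Of the 106 named genes tested, 23 to 39 lost their call with 1 library left out, 48 in the 4 libraries alone and 17 with the 6 h libraries alone, and the block added 4 calls and took none. The causes were not tested. Counts of 34204970 or more per library leave genes under 1 CPM with few reads, and 2 libraries in each group limit what can be called.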
